A study of Mus musculus with 7 samples.

Results

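The 32 genes described here make, sense, move and export cholesterol or build fatty acids. They were chosen by gene symbol from a list of these pathways, and all 32 were found among the 19736 gene symbols of each deposited table and passed the filter on low values, which kept 14582 genes. They fall into 16 enzymes of sterol synthesis, 4 genes of sterol sensing and transport, 8 genes of fatty acid synthesis, and 4 genes of sterol efflux and of the liver X receptors (LXR).

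RNA was sequenced from regulatory T (Treg) cells sorted out of whole lung digests. The tested cells were CCR6+ Foxp3-EGFP+ cells (3 libraries) and their controls CCR6- Foxp3-EGFP+ cells (4 libraries). CCR6 binds the chemokine CCL20, and the EGFP reporter marks cells that express Foxp3, the lineage factor of Treg cells. Both groups carried the Il4raR576 allele, a form of the gene for the alpha chain of the IL-4 receptor, and both had the same allergen exposure, so neither the allele nor the exposure is compared here. The mice were females 5 to 7 weeks old that received 100 µg of ovalbumin into the peritoneum and a boost after 2 weeks. From day 29 they inhaled 1% ovalbumin for 30 min a day over 3 days, and day 32 was the end point. Whether each library is a different animal, or a pool, is not in the labels, so p-values reflect variation among the 7 libraries only, which could be technical.

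Cholesterol is built from acetyl-CoA through mevalonate, isoprenoid units, squalene and lanosterol. When sterols run low, SREBP-2 (Srebf2) and SREBP-1 (Srebf1) leave the endoplasmic reticulum and switch on the genes of sterol and fatty acid synthesis, whereas INSIG proteins hold them back when sterols are plentiful. The LXR factors are activated by oxysterols and switch on the export pumps ABCA1 and ABCG1 as well as Srebf1 and Scd1. In mouse T cells, growth after stimulation draws on these pathways, and sterol intermediates can act as ligands of RORgt, the nuclear receptor of Th17 cells.

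Values are normalised counts, that is reads per gene scaled by 1 size factor per library. The libraries held from 11607780 to 47261246 reads, with the fewest in CCR6+ replicate 2. Ccr6 itself was at 7309, 2750 and 6406 in CCR6+ libraries and at 909, 851, 439 and 271 in CCR6- libraries. All 8 markers of Treg and T cell identity were detected in all 7 libraries, and Foxp3 ranged from 12210 to 50880. CCR6+ replicate 2 stood apart, because it had the highest value of the 7 libraries for 14 of 14 markers of macrophages and monocytes and 10 of 12 of lung epithelium. It was also highest for 10 of 11 of endothelium, fibroblasts and adipocytes, and 7 of 7 of dendritic cells. The exception among the 11 was the adipocyte marker Adipoq, at 0 in CCR6+ replicate 2 and at 21.5 and 24.4 in CCR6+ replicates 1 and 3. Results that rest on that library are given with and without it.

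Promoter sequence was available for 24 of the 32 members as RefSeq windows on GRCm38.p6, from 250 bases before to 50 after the annotated start. Searched on both strands, CCAAT, the letters bound by NF-Y, occurred in 12 of 13 sterol enzyme genes with a window (all but Acat2), 3 of 3 sensing genes, 2 of 5 fatty acid genes and 0 of 3 efflux and LXR genes. Among all 27025 genes with a window, 41.1% held it, and 42.5% of the 11103 genes tested here that have one. NF-Y is known to act together with SREBP at sterol genes. The Hmgcs1 window (chr13:119690101-119690350, plus strand, the bases before the start) was the only member window with an exact match to the sterol regulatory element string TCACNCCAC, which 1.44% of all genes held. It is shown because it carries both motifs, with CCAAT matches on either strand (CCAAT or ATTGG) and the sterol regulatory element in capitals.
Hmgcs1: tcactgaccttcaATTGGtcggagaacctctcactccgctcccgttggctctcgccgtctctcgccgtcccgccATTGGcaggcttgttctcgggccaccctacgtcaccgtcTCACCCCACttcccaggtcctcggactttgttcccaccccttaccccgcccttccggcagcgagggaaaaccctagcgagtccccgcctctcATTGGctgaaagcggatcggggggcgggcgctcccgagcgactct

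To show the shared letters at steps along the pathway and at the sterol sensor Insig1, 41 bases around 1 CCAAT match (in capitals) of 7 further genes are printed. Each is the match nearest to the start whose 41 bases end before it. Mvd (chr8:122443427-122443467, minus strand) has it 27 bases before the start, Idi1 (chr13:8885543-8885583, plus strand) 45 bases, and Lss (chr10:76531525-76531565, plus strand) 62 bases. Cyp51 (chr5:4104704-4104744, minus strand) has it 29 bases before the start, Nsdhl (chrX:72918394-72918434, plus strand) 109 bases, Dhcr7 (chr7:143830147-143830187, plus strand) 49 bases, and Insig1 (chr5:28071178-28071218, plus strand) 216 bases. For Dhcr7 the start is that of the window beginning at chr7:143829964. Its windows beginning at 143822917 and 143823149, at other annotated starts, held no CCAAT match.
Mvd: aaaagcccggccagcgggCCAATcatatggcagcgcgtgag
Idi1: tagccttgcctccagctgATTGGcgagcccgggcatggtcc
Lss: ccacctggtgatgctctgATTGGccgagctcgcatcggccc
Cyp51: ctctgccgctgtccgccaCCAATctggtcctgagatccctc
Nsdhl: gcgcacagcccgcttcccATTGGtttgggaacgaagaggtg
Dhcr7: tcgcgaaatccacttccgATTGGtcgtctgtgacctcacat
Insig1: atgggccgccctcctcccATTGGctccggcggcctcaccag

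The GC box GGGCGG, the letters bound by Sp1, occurred in 12 of 13 sterol enzyme genes, 3 of 3 sensing genes, 2 of 5 fatty acid genes and 1 of 3 efflux and LXR genes, against 38.2% of all genes and 64.3% of the tested genes. The E-box CACGTG occurred in 3 of 13, 1 of 3, 0 of 5 and 1 of 3 of the same groups, against 8.09% of all genes and 10.9% of the tested genes. No matches of different motifs overlapped in the members' windows. A match is a string of letters in a window and not a measured binding site. Other forms of the sterol regulatory element, and members without a window, were not searched.

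**Figure D1:**
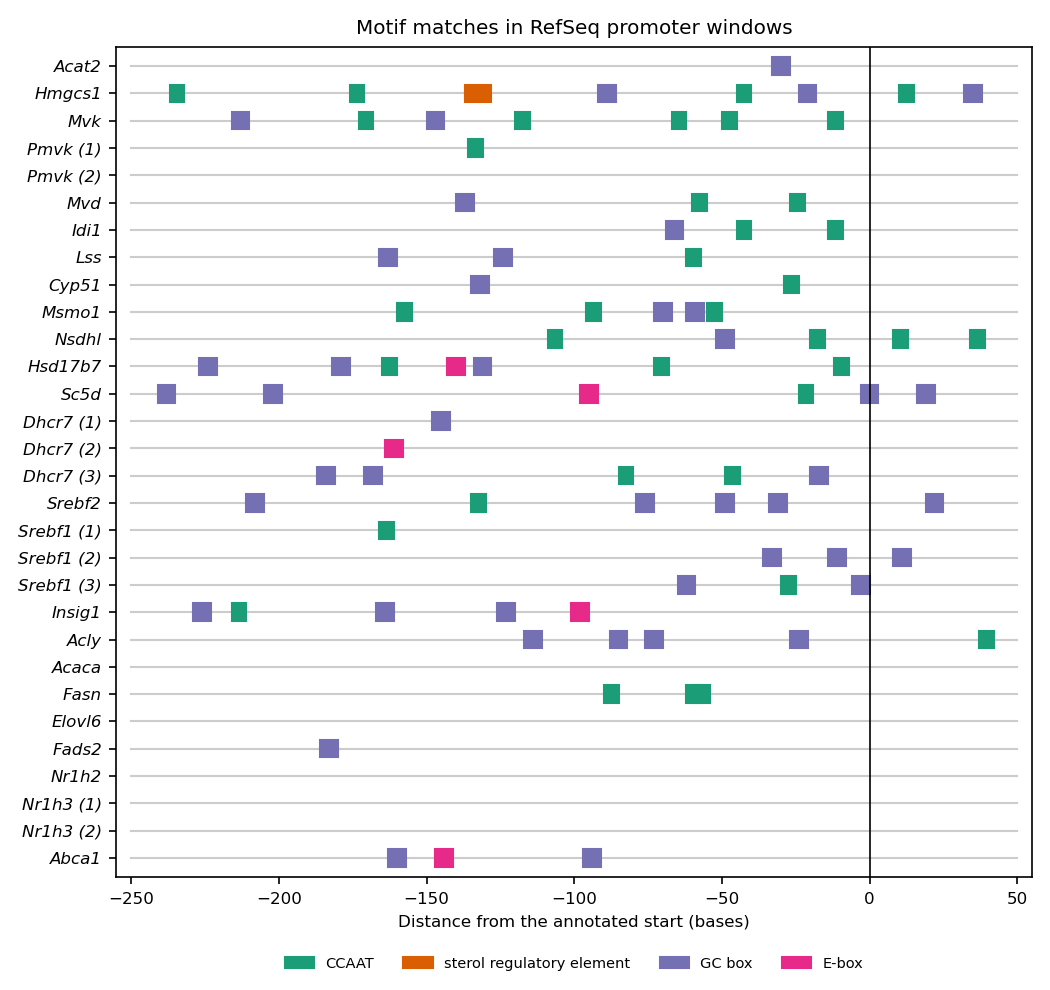
Matches of 4 motifs in the 30 RefSeq windows of 24 members, by distance in bases from the annotated start (0), with genes in pathway order and further windows of a gene numbered. CCAAT matches run through the sterol enzyme genes from Hmgcs1 to Dhcr7, and Hmgcs1 has the only exact match to the sterol regulatory element string TCACNCCAC.

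On the deposited scale the sterol enzymes had close levels in CCR6+ and CCR6- cells. By limma on log2(value + 1), with CCR6+ minus CCR6- differences, 0 of the 16 passed an adjusted p of 0.05, and the smallest adjusted p among them was 0.547. No gene of the 14582 passed that threshold (0%), so the absence of calls does not set the enzymes apart. What the values allow is a bound. All 16 differences lay between -0.37 and 0.27 on the log2 scale, each smaller than 0.5, against 60.3% of all genes tested and 69.8% of the 8389 genes whose mean lay in the enzymes' range. Where a mean of at least 100 was required, 15 of 15 enzymes were under 0.5, against 75.3% of the genes kept. For 12 of the 16, the 95% interval lay within a 2-fold change in either direction, against 44.6% of all genes and 52.5% of the genes of like level. The 4 whose interval reached past a 2-fold lower level were Acat2, Mvk, Pmvk and Sqle. The bound depends on the scaling. After quantile normalisation 10 of the 16 differed by less than 0.5, against 55.9% of all genes, with Idi1 at -1.999, Fdps at -1.23, Mvk at -1.21, Pmvk at -0.91, Acat2 at -0.56 and Lss at -0.54, and 8 of the 16 intervals lay within 2-fold, against 38% of all genes. Acat2 was at -0.595 by edgeR and -0.52 by DESeq2.

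Signs leaned to one side by a small amount. Among the enzymes, 4 differences were positive and 12 negative, and their median was -0.16, while 8294 of all genes were above 0 and 6288 below, and the median over all genes was 0.10. The enzymes' median was -0.07 with equal library totals and -0.32 after quantile normalisation, which moved the median of all genes to -0.08. Without CCR6+ replicate 2 it was -0.14. The mean log2 level over the 16 enzymes was 9.54, 9.57 and 9.60 in CCR6+ libraries and 9.58, 9.74, 9.67 and 9.82 in CCR6- libraries, so the groups overlapped. Between libraries, 11 of the 16 enzymes spanned less than a 2-fold range over all 7 (68.8%), against 37.4% of all genes and 43.8% of the genes of like level.

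The first enzymes of the pathway form and use acetoacetyl-CoA. Acat2, which joins acetyl-CoA units, was at 665, 689 and 769 in CCR6+ cells and at 700, 682, 770 and 1890 in CCR6- cells. CCR6- replicate 4 alone was high, and the other 6 libraries lay within a narrow band. Acat2 shares 1477 bases at 97.7% identity with Acat3 and 445 bases at 98.7% with Tcp1, so its level is uncertain. Hmgcs1, which makes HMG-CoA, was at 2076, 2702 and 2261 in CCR6+ cells and at 2147, 2427, 2475 and 2043 in CCR6- cells. Its groups overlapped fully, with a difference of 0.04 (95% interval -0.37 to 0.46).

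The mevalonate steps follow. Mvk, mevalonate kinase, was at 452, 268 and 315 in CCR6+ cells and at 514, 499, 444 and 313 in CCR6- cells. Pmvk, phosphomevalonate kinase, was at 262, 334 and 362 in CCR6+ cells and at 236, 372, 369 and 583 in CCR6- cells. Mvd, which releases the isoprenoid unit isopentenyl diphosphate, was at 792, 730 and 856 in CCR6+ cells and at 597, 684, 537 and 856 in CCR6- cells. The 2 kinases had negative differences of -0.37 ± 0.27 (SE) and -0.23 ± 0.33, and Mvd had the largest positive one of the 16, 0.27 ± 0.21. In none of the 3 did the groups separate. Mvk was lowest in CCR6+ replicate 2, and without that library its difference was -0.20.

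The isoprenoid branch point had the lowest counts. Idi1, the isomerase of isopentenyl diphosphate, was at 111, 84.2 and 70.0 in CCR6+ cells and at 114, 112, 94.7 and 71.1 in CCR6- cells. Fdps, which makes farnesyl diphosphate, was at 81.6, 184 and 135 in CCR6+ cells and at 165, 87.8, 127 and 114 in CCR6- cells. In both genes the groups overlapped. Levels of these genes are uncertain, because Idi1 shares 684 bases at 100% identity with a pseudogene transcript, Gm13502, and 26.7% of the exonic bases of Fdps overlap another gene, Gm43738.

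Squalene and lanosterol come next. Fdft1, squalene synthase, was at 1019, 726 and 1065 in CCR6+ cells and at 869, 1081, 1026 and 1143 in CCR6- cells, and 18.3% of its exonic bases overlap Ctsb on the opposite strand. Sqle, squalene epoxidase, was at 1185, 2325 and 1596 in CCR6+ cells and at 1446, 1762, 1657 and 2926 in CCR6- cells. Lss, lanosterol synthase, was at 474, 653 and 421 in CCR6+ cells and at 526, 563, 552 and 929 in CCR6- cells. For Sqle and Lss the highest library of each group was the same pair, CCR6+ replicate 2 and CCR6- replicate 4. Without CCR6+ replicate 2, the 2 remaining CCR6+ values of Lss lay below all 4 CCR6- values, with a difference of -0.48 (adjusted p 0.847, limma).

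The late steps trim lanosterol to cholesterol. Cyp51, the sterol demethylase, was at 2879, 2736 and 2540 in CCR6+ cells and at 2730, 3527, 3277 and 2648 in CCR6- cells. Msmo1, methylsterol monooxygenase, was at 1775, 2411 and 2008 in CCR6+ cells and at 1555, 2372, 1924 and 2262 in CCR6- cells. Nsdhl, a sterol dehydrogenase, was at 1569, 1153 and 1516 in CCR6+ cells and at 1460, 1777, 1374 and 1668 in CCR6- cells. All 3 overlapped between the groups, with differences of -0.16 for Cyp51, 0.03 for Msmo1 and -0.16 for Nsdhl. Hsd17b7, a ketoreductase, was at 478, 500.4 and 524 in CCR6+ cells and at 456, 563, 570.1 and 430.5 in CCR6- cells. Sc5d, a sterol desaturase, was at 2563, 1301 and 1999 in CCR6+ cells and at 2103, 2536, 2289 and 1620 in CCR6- cells. Dhcr7, which takes the last step to cholesterol, was at 1325, 1106 and 1727 in CCR6+ cells and at 1666, 1617, 1662 and 1801 in CCR6- cells. Dhcr7 had the smallest unadjusted p of the 16, 0.164, with a difference of -0.31 ± 0.20 (SE) and 2 of 3 CCR6+ values below every CCR6- value. Sc5d and Dhcr7 were both lowest in CCR6+ replicate 2. Without that library their differences were 0.10 and -0.16, and the unadjusted p of Dhcr7 was 0.433 (limma).

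**Figure D2:**
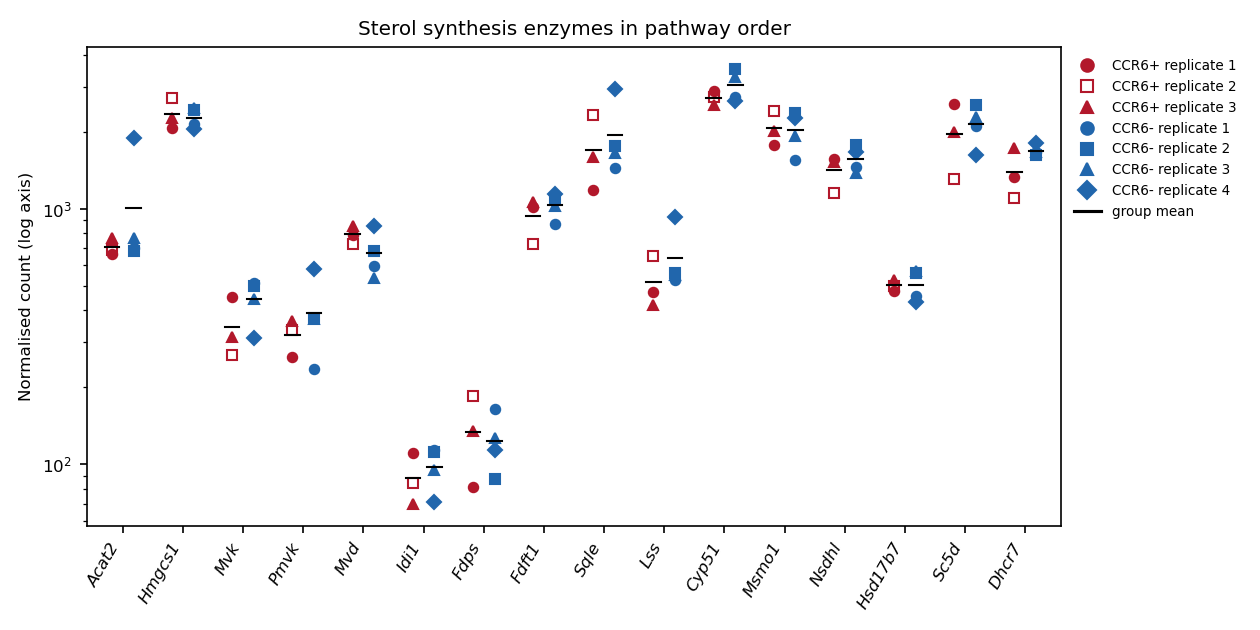
Normalised count (log axis) of the 16 sterol synthesis enzymes in pathway order, 1 point per library, CCR6+ left of CCR6- for each gene, with lines at the group means and open squares for CCR6+ replicate 2. The groups overlap for every enzyme, and CCR6- replicate 4 stands above the others for Acat2 (1890) and Lss (929).

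The highest of the 7 values belonged to CCR6- replicate 4 for 7 of the 16 enzymes, where it was highest for 21.6% of all genes. Per kilobase of exonic sequence, which allows levels to be compared between genes, the enzymes ran from 27.0 for Idi1 and 30.2 for Fdps (medians of 7 libraries) to 492 for Hmgcs1, 531 for Nsdhl and 620 for Cyp51.

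The sensing and transport genes did not separate the groups either. Srebf2 was at 8648, 8739 and 9642 in CCR6+ cells and at 9652, 7879, 10310 and 7741 in CCR6- cells, a difference of 0.03 (95% interval -0.40 to 0.45). Srebf1, which encodes SREBP-1, was at 5864, 3837 and 4823 in CCR6+ cells and at 5826, 5050, 5081 and 4877 in CCR6- cells, a difference of -0.12 (-0.60 to 0.35). For both regulators the whole interval lay within 2-fold. Insig1 was at 973, 1208 and 891 in CCR6+ cells and at 967, 777, 1311 and 465 in CCR6- cells. Stard4, a carrier that moves cholesterol between membranes, was at 905, 817 and 861 in CCR6+ cells and at 967, 1301, 855 and 925 in CCR6- cells. Insig1 was lowest in CCR6- replicate 4, and its interval (-0.59 to 1.20) reached past 2-fold, while that of Stard4 (-0.69 to 0.25) did not. The smallest adjusted p of the 4 was 0.619. Srebf2 and Srebf1 had 1216 and 896 counts per kilobase as medians, above all 16 enzymes.

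The fatty acid genes varied more between libraries and gave the largest differences of the 32 members. None passed the adjusted threshold, 5 differences were positive and 3 negative, and their median was 0.12. Without CCR6- replicate 4 the median was -0.14. A single gene, Scd1, had an unadjusted p under 0.05, where 8.22% of all genes had one in the higher direction and 2.35% in the lower. Just 1 of the 8 spanned less than a 2-fold range over the 7 libraries, and CCR6+ replicate 2 had the highest value for 5 of them, as it had for 43.6% of all genes.

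Scd1, the desaturase that makes oleate, was at 547, 2709 and 203 in CCR6+ cells and at 238, 184, 48.7 and 68.4 in CCR6- cells. CCR6+ replicate 2 lay far above all others, and CCR6+ replicate 3 lay below the highest CCR6- library, so the groups overlapped. The difference was 2.60 ± 1.00 on the log2 scale (SE, 95% interval 0.17 to 5.02), with an unadjusted p of 0.0394 and an adjusted p of 0.466 (limma). Without CCR6+ replicate 2 it was 1.59 with an unadjusted p of 0.105. On the reads recovered from the deposited values, DESeq2 called Scd1 (adjusted p 0.0156), as it called 4.03% of 13487 genes higher and 1.01% lower, and edgeR did not (adjusted p 0.314), calling 0.0137% of all genes. Without CCR6+ replicate 2, DESeq2 gave Scd1 an adjusted p of 0.52.

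In the same library, markers of other lung cells were high. The summed value of the 14 macrophage and monocyte markers was 55010, 126600 and 10610 in CCR6+ libraries and between 1534 and 35870 in CCR6- libraries, led by Chil3 and Lyz2. That of the 12 lung epithelium markers was 12030, 88890 and 3653 in CCR6+ libraries and between 1908 and 10260 in CCR6- libraries, led on average by Sftpc and Sftpa1. In CCR6+ replicate 1, however, Scgb1a1 of that list was at 6428, against 1173 for Sftpc and 1095 for Sftpa1. The sum of 11 markers of endothelium, fibroblasts and adipocytes was 6027, 48970 and 9082 in CCR6+ libraries and between 5593 and 8471 in CCR6- libraries. It was led by Pecam1 and Col3a1, and Pecam1 alone was at 5480, 12480 and 5976 in CCR6+ libraries and between 5317 and 6648 in CCR6- libraries. CCR6+ replicate 2 was thus highest for each of these 3 sums and for Scd1. Dendritic cell markers summed to 1536, 8521 and 1236 in CCR6+ libraries and to between 531 and 825 in CCR6- libraries. B cell markers summed to 5271, 4866 and 1197 in CCR6+ libraries and to between 471 and 3441 in CCR6- libraries. Markers of Treg and T cell identity, led by Ctla4 and Cd3e, were lowest in CCR6+ replicate 2, with sums of 273200, 98800 and 233600 in CCR6+ libraries and between 160600 and 211100 in CCR6- libraries. Defining markers at 0 in some library were Lamp3 and Slc34a2 of epithelium, Adgre1, Mrc1 and Marco of macrophages, Pdgfrb, Plin1 and Adipoq of stroma and fat, Pax5 of B cells, and Clec9a and Siglech of dendritic cells. The part of these cells in the values of Scd1 and the other members was not tested, and in bulk RNA fewer cells of a type and less RNA per cell cannot be told apart.

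Scd2, the close relative that lies beside Scd1 on chromosome 19, gave a different picture. It was at 2226, 3330 and 1952 in CCR6+ cells and at 3322, 2629, 2260 and 1624 in CCR6- cells, a difference of 0.03 (95% interval -0.73 to 0.80). Per kilobase, Scd2 averaged 458 ± 134 counts in CCR6+ cells and 450 ± 130 in CCR6- cells (SD, n = 3 and 4), whereas Scd1 averaged 236 ± 278 in CCR6+ cells and 27.6 ± 18.6 in CCR6- cells. The transcripts share 623 bases at 95.5% identity, so some reads of one could count for the other.

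The second desaturase pair of chromosome 19 acts on polyunsaturated fatty acids. Fads2, the first enzyme of that branch, was at 36.9, 384 and 34.5 in CCR6+ cells and at 39.7, 32.3, 21.1 and 19.6 in CCR6- cells. Apart from CCR6+ replicate 2, all its values lay within 19.6 to 39.7, and the difference was 1.52 ± 0.89 (SE) with that library and 0.39 without it. Fads1, which acts further along, was at 1046, 1902 and 922 in CCR6+ cells and at 1511, 1516, 1571 and 1501 in CCR6- cells. CCR6- cells agreed closely, whereas CCR6+ replicates 1 and 3 lay below all of them and CCR6+ replicate 2 above. Over the 7 libraries Fads1 differed by -0.32 (adjusted p 0.61). Without CCR6+ replicate 2 it differed by -0.64, with an unadjusted p of 0.00837 and an adjusted p of 0.519 by limma, 0.0294 by DESeq2 and 0.382 by edgeR. DESeq2 then called 0.845% of 12301 genes higher and 0.65% lower. That value rests on 2 CCR6+ libraries.

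Acly, Fasn, Acaca and Elovl6 supply the chains on which the desaturases act. Acly, which makes cytosolic acetyl-CoA from citrate, was at 13400, 12110 and 11960 in CCR6+ cells and at 15690, 11940, 13660 and 19190 in CCR6- cells. With a median of 2538 counts per kilobase it had the highest level of the 32 members, and its difference was -0.26 (95% interval -0.75 to 0.24). Fasn, fatty acid synthase, was at 4736, 4843 and 4495 in CCR6+ cells and at 6462, 4610, 4609 and 1988 in CCR6- cells. The CCR6+ values of Fasn were close together and lay inside the wider CCR6- range. Acaca, which makes malonyl-CoA, was at 125, 471 and 201.0 in CCR6+ cells and at 133, 123, 171 and 96.8 in CCR6- cells. Its difference was 0.82 ± 0.47 (SE), and 0.30 without CCR6+ replicate 2. Acaca had the lowest level per kilobase of the 32 (median 7.81), and 6118 bases of it match the pseudogene Gm5182 at 99.2% identity, so its level is uncertain. Elovl6, an elongase of palmitate, was at 917, 252 and 610 in CCR6+ cells and at 650, 762, 545 and 642 in CCR6- cells. It was lowest in CCR6+ replicate 2, and its difference was -0.31 with that library and 0.21 without it.

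The efflux genes and LXR factors overlapped between the groups as well. Nr1h2 encodes LXR beta and Nr1h3 encodes LXR alpha, which is known from macrophages and liver. Nr1h2 was at 5996, 4067 and 5351 in CCR6+ cells and at 5313, 5551, 4889 and 8728 in CCR6- cells, a difference of -0.23 (95% interval -0.88 to 0.42). Nr1h3 was at 36.1, 234 and 19.3 in CCR6+ cells and at 21.8, 67.1, 25.7 and 9.47 in CCR6- cells. CCR6+ replicate 2 was again the highest, and the difference of Nr1h3 was 1.13 ± 0.99 (SE) with it and 0.10 without it. Per kilobase the medians of Nr1h2 and Nr1h3 were 1595 and 10.2. Abca1, the pump that loads cholesterol onto apolipoprotein A-I, was at 1073, 837 and 1021 in CCR6+ cells and at 1047, 926, 1200 and 349 in CCR6- cells. Abcg1, which exports sterol to lipoprotein particles, was at 1336, 1237 and 1027 in CCR6+ cells and at 1555, 1247, 1528 and 1132 in CCR6- cells. Abca1 was low in CCR6- replicate 4 alone, and Abcg1 lay within a narrow range in both groups. The smallest adjusted p of the 4 was 0.614.

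**Figure D3:**
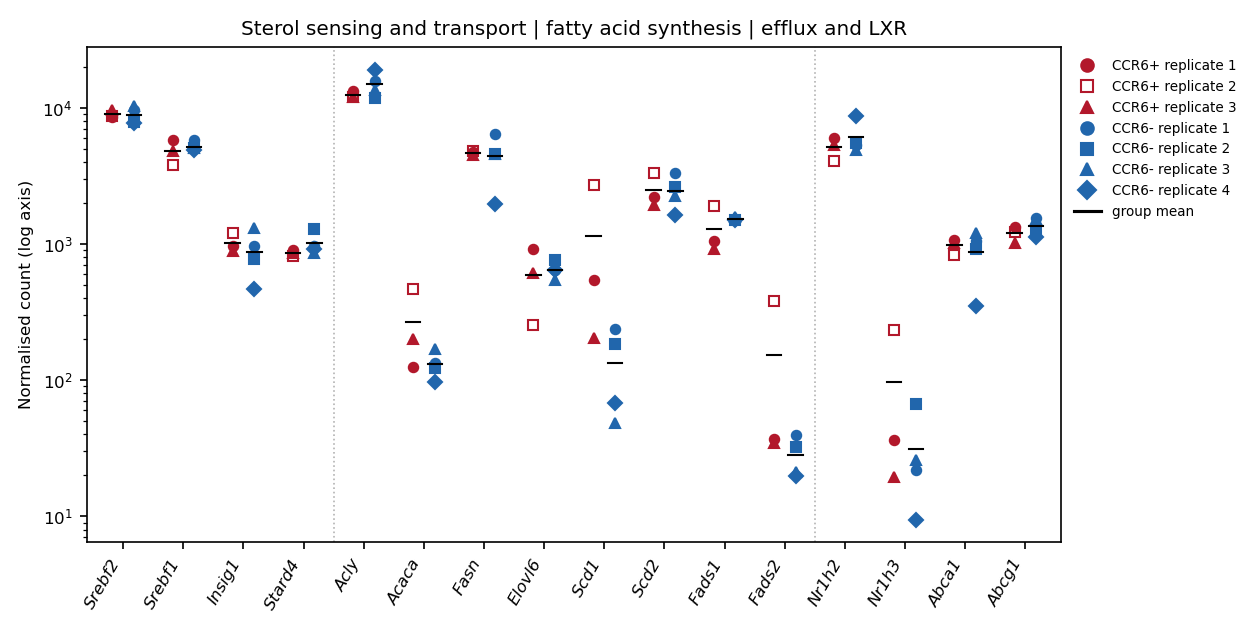
Normalised count (log axis) of the 4 sensing and transport genes, the 8 fatty acid genes and the 4 efflux and LXR genes, 1 point per library, CCR6+ left of CCR6-, with lines at the group means. Open squares mark CCR6+ replicate 2, which stands above all other libraries for Scd1 (2709), Fads2 (384), Nr1h3 (234) and Acaca (471).

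Over all 32 members, 13 differences were positive and 19 negative, and their median was -0.15. In 28 of them the difference was smaller than 0.5 on the log2 scale (87.5%, against 60.3% of all genes), and in 20 the 95% interval lay within 2-fold. After quantile normalisation 23 differed by less than 0.5 (71.9%, against 55.9% of all genes). Where a mean of at least 100 was required, 27 of 29 members did (93.1%, against 75.3% of the genes kept). On the deposited scale the 4 exceptions in size were Scd1, Fads2, Nr1h3 and Acaca, in each of which CCR6+ replicate 2 had the highest value. The groups did not overlap for 0 of the 32, where 7.96% of all genes had all CCR6+ values above and 5.53% had all below the CCR6- values. Without CCR6+ replicate 2, Lss and Fads1 lay wholly lower in CCR6+ cells and 0 members wholly higher, where 8.62% of all genes lay wholly lower and 10.5% wholly higher, and 30 members differed by less than 0.5 (93.8%, against 67.4% of all genes).

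**Figure D4:**
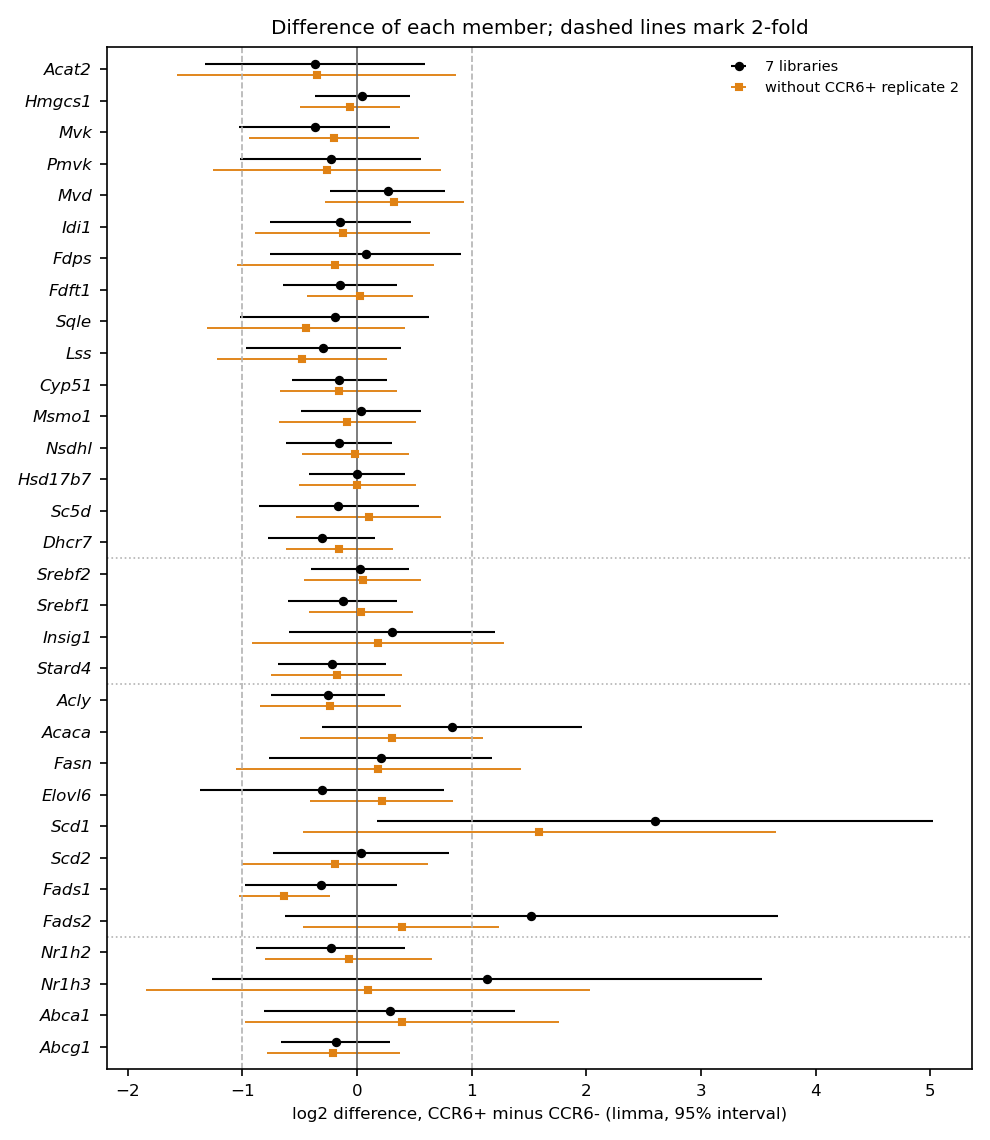
Difference of each member on the log2(value + 1) scale, CCR6+ minus CCR6-, with the 95% interval from limma, for 7 libraries (circles) and without CCR6+ replicate 2 (squares), and dashed lines at a 2-fold change. The sterol enzymes cluster near 0, and Scd1 is the one member whose 7-library interval (0.17 to 5.02) leaves out 0.

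**Figure D5:**
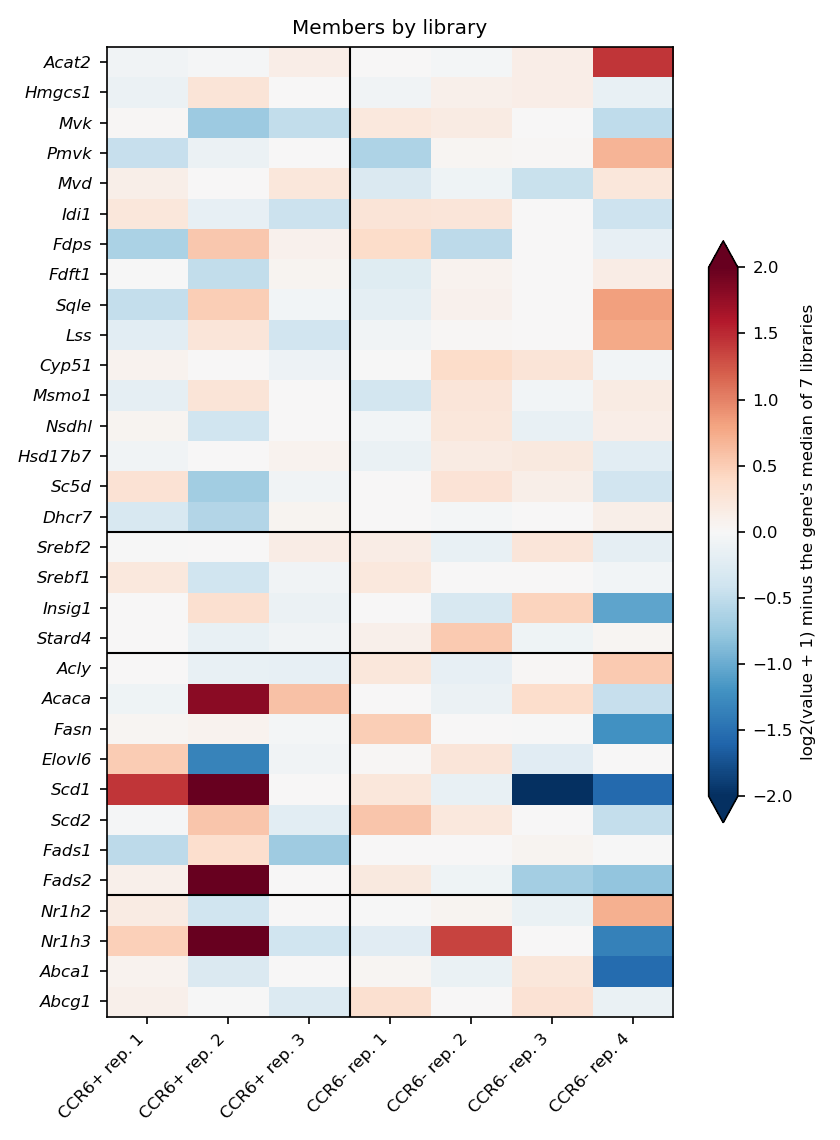
Each member's log2(value + 1) minus its median over the 7 libraries, with libraries in columns (CCR6+ left of the line) and colours held at 2 log2 units in either direction. The strongest positive cells are Scd1, Fads2 and Nr1h3 in CCR6+ replicate 2, and the strongest one among the sterol enzymes is Acat2 in CCR6- replicate 4.

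Further genes of the same pathways were taken from 5 longer lists, none of whose genes passed the adjusted threshold by limma or edgeR. DESeq2 called 6 of them, all higher in CCR6+ cells (Me1, Apoe, Cyp7b1, Cd36, Cpt1c and Mgll), and 0 without CCR6+ replicate 2. By list, in the order below, these were 0 of 10, 0 of 20, 1 of 21, 2 of 14 and 3 of 29 genes with an adjusted p. Over all genes DESeq2 called 4.03% higher and 1.01% lower, and 0.845% and 0.65% without that library. Among 10 tested genes of other sterol synthesis steps, 2 differences were positive and 8 negative, and their median was -0.15. Lbr, a sterol reductase that is also a receptor of the nuclear lamina, was at 34650, 21410 and 27380 in CCR6+ cells and at 38650, 38740, 33950 and 34740 in CCR6- cells. Its difference was -0.42 (unadjusted p 0.0864, limma). Without CCR6+ replicate 2, its lowest library, the difference was -0.24 (unadjusted p 0.241). Aacs, which activates acetoacetate, was at 1704, 1879 and 1620 in CCR6+ cells and at 2048, 2045, 2108 and 2035 in CCR6- cells. Acat1, the mitochondrial thiolase, was at 2654, 3191 and 2476 in CCR6+ cells and at 2968, 3777, 3178 and 3565 in CCR6- cells. Of these 3, Aacs had groups that did not overlap, with a difference of -0.25 (adjusted p 0.517, limma). Among the 10, 0 lay wholly higher and 1 wholly lower, where 7.96% and 5.53% of all genes did.

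Among 21 genes of sterol uptake, sensing and storage, 12 differences were positive and 9 negative, and their median was 0.06. Mylip, a ubiquitin ligase that removes lipoprotein receptors, was at 754, 924 and 696 in CCR6+ cells and at 972, 1218, 1504 and 1164 in CCR6- cells. Lipa, the lysosomal acid lipase that frees cholesterol from its esters, was at 9835, 6719 and 8159 in CCR6+ cells and at 6256, 6585, 5866 and 5062 in CCR6- cells. In both genes every CCR6+ value lay on one side of every CCR6- value. Of the 21, 1 lay wholly higher (Lipa) and 1 wholly lower (Mylip), where 7.96% and 5.53% of all genes did. Mylip differed by -0.61 ± 0.21 (SE, adjusted p 0.449) and by -0.73 without CCR6+ replicate 2. Lipa differed by 0.46 ± 0.20 (adjusted p 0.475) and by 0.60 without that library. Lrp1, a lipoprotein receptor, was at 383, 1774 and 276 in CCR6+ cells and at 362, 70.4, 85.5 and 12.2 in CCR6- cells, with an unadjusted p of 0.048 and of 0.152 without CCR6+ replicate 2.

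Among 23 tested genes of 26 in fatty acid synthesis and activation, 12 differences were positive and 11 negative, and their median was 0.01, and 4 had an unadjusted p under 0.05, all 4 higher (over all genes, 8.22% higher and 2.35% lower). Me1, the malic enzyme that supplies NADPH, was at 71.3, 523 and 52.8 in CCR6+ cells and at 18.9, 40.6, 25.8 and 10.8 in CCR6- cells. Acsl1, which activates long-chain fatty acids, was at 920.1, 1160 and 1023 in CCR6+ cells and at 760.4, 815, 752 and 591 in CCR6- cells. Fads3, a relative of Fads1 and Fads2, was at 31.8, 368 and 37.6 in CCR6+ cells and at 3.78, 16.6, 15.6 and 15.6 in CCR6- cells. Of the 23, 5 had all CCR6+ values above all CCR6- values and 1 had all below, where 7.96% and 5.53% of all genes did. Me1, Acsl1 and Fads3, named for their small p, were among the 5. Their differences were 2.49, 0.51 and 2.65, with adjusted p from 0.449 to 0.462 by limma, and 1.46, 0.42 and 1.53 without CCR6+ replicate 2. DESeq2 gave Me1 an adjusted p of 0.0317, and 0.706 without that library.

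Among 15 tested genes of 20 that are other LXR targets, partners or oxysterol genes, 11 differences were positive and 4 negative, and their median was 0.47 (0.46 without CCR6+ replicate 2). That list leaves out the LXR targets among the members, Abca1, Abcg1, Srebf1 and Scd1, with differences of 0.28, -0.18, -0.12 and 2.60. Cyp7b1, an oxysterol hydroxylase, was at 36.9, 180 and 88.3 in CCR6+ cells and at 6.62, 22.4, 14.7 and 2.03 in CCR6- cells. Apoe, the apolipoprotein made in quantity by macrophages, was at 1290, 6196 and 848 in CCR6+ cells and at 627, 544, 412 and 267 in CCR6- cells. Pltp, the phospholipid transfer protein, was at 544, 9335 and 835 in CCR6+ cells and at 283, 372, 260.2 and 112 in CCR6- cells. Of the 15, 3 lay wholly higher in CCR6+ cells and 0 wholly lower, where 7.96% and 5.53% of all genes did. The 3 were Cyp7b1, Apoe and Pltp, which stayed wholly higher without CCR6+ replicate 2. All 3 were highest in that library, where the macrophage and stromal markers were highest too. Cyp7b1 differed by 3.15 ± 0.85 (SE, adjusted p 0.430 by limma) and by 2.60 without it, Apoe by 2.10 and 1.25, and Pltp by 2.78 and 1.52. DESeq2 gave Cyp7b1 an adjusted p of 0.0481, and 0.491 without that library, and Apoe 0.00548 and 0.108. The dendritic cell marker sum was above every CCR6- library in all 3 CCR6+ libraries (1536, 8521 and 1236, against at most 825). The macrophage marker sum was also above every CCR6- library in CCR6+ replicate 1 (55010, against at most 35870), not in CCR6+ replicate 3 (10610). So were the lung epithelium sum (12030, against at most 10260) and the B cell sum (5271, against at most 3441), again not in CCR6+ replicate 3 (3653 and 1197). The sum for endothelium, fibroblasts and adipocytes was above every CCR6- library in CCR6+ replicate 3 (9082, against at most 8471), not in CCR6+ replicate 1 (6027). The part of these cells in the values of Cyp7b1, Apoe and Pltp was not tested.

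Among 30 tested genes of 32 in fatty acid oxidation, uptake and lipid droplets, 19 differences were positive and 11 negative, and their median was 0.16 (0.04 without CCR6+ replicate 2), and 3 had an unadjusted p under 0.05, all 3 higher (over all genes, 8.22% higher and 2.35% lower). Cpt1c, a carnitine palmitoyltransferase of neurons, was at 16.3, 175 and 107 in CCR6+ cells and at 8.51, 13.3, 12.9 and 17.6 in CCR6- cells. Mgll, monoglyceride lipase, was at 204, 782 and 102 in CCR6+ cells and at 67.2, 77.1, 36.8 and 10.2 in CCR6- cells. Cd36, the fatty acid receptor of macrophages, fat and capillaries, was at 888, 23530 and 2066 in CCR6+ cells and at 551, 765, 514 and 125 in CCR6- cells. CCR6+ replicate 2 was the highest library for all 3. By limma their adjusted p ran from 0.449 to 0.469, and without that library their unadjusted p were 0.0768, 0.0801 and 0.0866. By DESeq2 the adjusted p were 0.0438, 0.0337 and 0.0164 in the order named, and 0.489, 0.570 and 0.224 without that library.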

How the data were processed

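The mm10 build, DESeq2 1.6.3, HTSeq 0.6.1p1 and STAR 2.5.1b appear, without role or order, per the submitters' processing notes. Per the labels' protocols, cDNA came from a SMART-Seq v4 low input kit and libraries from a KAPA Hyper Prep kit. The annotation used and the strand setting were not given in the sources used here. Deposited values hold, for each gene, a signal: counts that the authors scaled with 1 size factor per library. Division by the step between values gave whole reads for 100% of values within 0.001 reads. In CCR6+ replicate 2, 1 read is worth 2.27 units, against 0.677 to 1.02 in the others.

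Genes at 10 or more in at least 3 of 7 libraries were tested with limma 3.58.1 (R 4.3.3) after log2(value + 1) transformation. The test was two-sided without covariates, and p-values were adjusted by Benjamini-Hochberg over 14582 genes, with a threshold of 0.05. This scale understates changes of low genes. Groups and replicate numbers came from the sample titles. Results were recomputed with pseudocounts of 0.5 and 8, without the filter, with a mean of at least 100, with equal totals, TMM and quantile normalisation, with a replicate block, on recovered reads by DESeq2 1.42.0 and edgeR 4.0.16 (both also without CCR6+ replicate 2), and with each library left out. The counts of small differences and of DESeq2 calls in the longer lists under these settings were added after the data were seen. Percentages of genes of like level use tested genes whose mean lay between the lowest and the highest mean of the 16 enzymes. Levels per kilobase use the union of exons of GENCODE mouse release 21 on GRCm38, and near-identical transcripts were sought with blastn 2.17.0 (at least 95% over 400 bases). Reads of overlapping genes on opposite strands may not have been separable.

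The members and all lists were chosen with earlier results of these data known. The text names all 32 members, the 3 genes of smallest p in each longer list, the 2 markers of highest mean in each marker list where a list is led by them, Ccr6 and, chosen after its values were seen, Foxp3. Markers at 0, Scgb1a1 and the partners of overlap or identity are named outside that rule.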

Additional observations from a re-analysis of the deposited data

Results flagged for a closer look

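In 36 sets of 4 CCR6- values (the 32 members and the means of 4 groups), 2 had 1 library far from the other 3 by Dixon's test at the 95% level, and chance flags about 1 set in 20. Acat2 was at 1890 in CCR6- replicate 4 and between 682 and 770 in the other 3 CCR6- libraries, a gap of 0.881 of the range. Lss was at 929 in CCR6- replicate 4 and between 526 and 563 in the other 3, also a gap of 0.881. That library had the most reads, 47261246, and the largest share of genes at 0, 29.7%. The cause was not tested.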

How the results depend on the processing

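With limma and edgeR, 0 of 32 members were called under any setting run; 1 was called by DESeq2 (Scd1) and 1 by DESeq2 without CCR6+ replicate 2 (Fads1). Over all genes, those called higher were 1 with a pseudocount of 0.5, 2 with 8, 2 with a mean of at least 100, 1 with TMM, 2 with quantile normalisation, 2 with edgeR, 543 with DESeq2, and without CCR6+ replicate 2, 2 with edgeR and 104 with DESeq2; with 1 library left out, limma gave 0 to 1. Those called lower were 2 with quantile normalisation, 136 with DESeq2 and 80 with DESeq2 without CCR6+ replicate 2. Members whose groups do not overlap numbered 1 of 32 after quantile normalisation (13.2% of all genes) and 1 to 3 with 1 library left out (16.5% to 38.1% of all genes). The median of the sterol enzymes was -0.07 with equal totals and -0.32 after quantile normalisation.

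Of the 32 members, 17 kept their sign in every alternative run for them and 15 did not (59 of 605 values). Whether the replicate numbers pair the libraries was not settled. Correlations of same-numbered deviations were -0.128, -0.112 and 0.342, with no correlations of different-numbered libraries to set beside them. In the fit with the replicate block, where the unpaired CCR6- replicate 4 does not bear on the differences, they were -0.14 for Fasn, -0.035 for Srebf2, 0.019 for Sqle, -0.008 for Hmgcs1, -0.15 for Scd2 and -0.11 for Abca1. With TMM they were -0.039 for Hmgcs1, -0.005 for Fdps, -0.047 for Msmo1, -0.053 for Srebf2 and -0.046 for Scd2. With edgeR they were -0.059 for Srebf2, -0.068 for Scd2, -0.041 for Hmgcs1 and -0.064 for Msmo1. With equal totals Hsd17b7 was at 0.085, and after quantile normalisation Nr1h3 was at -0.81 and Fdps at -1.23. EdgeR without CCR6+ replicate 2 gave -0.12 for Hmgcs1, -0.24 for Fdps, -0.15 for Msmo1, 0.041 for Sc5d, -0.015 for Srebf2, 0.18 for Elovl6, -0.29 for Scd2 and -0.21 for Nr1h3. DESeq2 without it gave -0.15 for Nr1h3, 0.25 for Elovl6, 0.05 for Srebf1, 0.11 for Sc5d, 0.002 for Hsd17b7, -0.089 for Msmo1, 0.028 for Fdft1, -0.18 for Fdps, -0.056 for Hmgcs1 and -0.22 for Scd2.

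With each library left out, the differences ranged from -0.11 to 0.48 for Abca1, -0.72 to 0.21 for Elovl6, -0.14 to 0.43 for Fasn, -0.25 to 0.024 for Fdft1, -0.19 to 0.39 for Fdps, -0.065 to 0.13 for Hmgcs1, -0.074 to 0.061 for Hsd17b7, -0.32 to 0.006 for Idi1, -0.088 to 0.14 for Msmo1, -0.39 to 0.10 for Sc5d, -0.19 to 0.20 for Scd2, -0.45 to 0.039 for Sqle, -0.27 to 0.033 for Srebf1 and -0.035 to 0.10 for Srebf2. The cause of these changes was not tested. CCR6+ replicate 2 was shallow, so its low counts are the least precise. Even so, CCR6+ replicate 2 left the smallest share of genes without a read, 2.16%, and CCR6+ replicate 3 came next with 6.89%. Why the library with the fewest reads detected the most genes was not tested.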
